A study of Mus musculus with 20 samples.

Results

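The gene expression of mice with an altered androgen receptor was set against that of wild type mice, both under testosterone. The comparison holds 10 of the 20 libraries of the series: 5 from ARNoC/Y males (ARNoC) and 5 from wild type C57BL/6J males (WT). Each library is bulk RNA sequencing of a ventral prostate, and all of the males, the controls included, had been orchidectomised and then treated for 4 days. The ARNoC testosterone group and the WT testosterone group received testosterone, and the other 10 libraries, 5 of each genotype, come from males given vehicle and serve here as the untreated background. Libraries entered the comparison by their labels. A gene was tested when 5 or more of the 10 testosterone libraries held 10 or more normalized counts of it, a filter that 14412 genes passed. The sources used here do not give age, dose, the strain of the ARNoC males, the design of the allele or whether each library is a different animal, so the p-values cover the library-to-library spread, which may be technical.

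The androgen receptor is a ligand-activated transcription factor that binds testosterone or dihydrotestosterone, moves to the nucleus and regulates genes through androgen response elements. On binding androgen, a motif in its amino-terminal region docks onto the carboxyl-terminal ligand-binding domain, which is called the N/C interaction, and in ARNoC mice this docking is lost. The ventral prostate depends on androgen: after orchidectomy its luminal cells lose their secretory programme, and androgen given back restores secretion and drives regrowth. The question of the comparison is which genes differ between a prostate with and a prostate without the N/C interaction when androgen is present.

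Total counts ran from 8861646 to 21600352 over the 10 testosterone libraries and from 9755006 to 16814528 over the vehicle libraries. Each of the 20 within-group pairs of testosterone libraries was further apart than counting noise gives (chi-square divided by its degrees of freedom, 7.63 to 35.5), and each library was counted once. Among the 10 testosterone libraries, WT library 2 stood apart with the highest summed skeletal muscle markers (9816 normalized counts, with 15 of 15 markers above 0 over the 10 libraries together). WT library 5 had the highest summed basal and adipocyte markers (6830 and 24107). By the mean log2 of normalized counts plus 1, WT library 2 also had the lowest fibroblast markers (7.25), though by their sum ARNoC library 2 was slightly lower (25528 against 25583). Of 11 seminal vesicle markers, 9 had counts, with sums of 15.4 to 56.6 normalized counts in WT and 10.2 to 15.4 in ARNoC, and Svs3a and Svs3b were at 0. Of 20 listed luminal epithelial markers, which define the labelled tissue, 19 were among the deposited genes, all with counts. Their sums were 86803 to 106285 in WT and 92781 to 114262 in ARNoC. Counts per gene do not show the altered allele and so do not check the genotype labels. In bulk tissue, fewer cells of a type and less RNA per cell cannot be told apart.

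Of the 14412 genes, 278 (1.93%) differed between ARNoC and WT under testosterone at an adjusted p below 0.05 by edgeR's quasi-likelihood test, which is the meaning of "called" from here on. The called genes divided into 107 higher in ARNoC (0.742% of genes tested) and 171 lower (1.19%). A difference of at least 2-fold was seen in 26 of the higher and 46 of the lower genes. The 5 ARNoC libraries did not overlap the 5 WT libraries in 234 of the 278 called genes, against 570 genes (3.96%) over all genes tested, these 234 included. The called genes were selected on these same libraries, so their lack of overlap is not separate support. Genes with large differences included a P2X receptor subunit (P2rx6), a collagen VI chain (Col6a3), a kainate receptor subunit (Grik2) and a zinc importer (Slc39a8) among the lower genes, and a non-classical MHC molecule (H2-Q10), a protease inhibitor (Mug1) and a transporter chaperone (Emb) among the higher ones. Without WT libraries 2 and 5 together, a setting chosen after the data were seen, 194 genes were called, 87 higher and 107 lower, of which 156 are among the 278. Of 51 called genes that the naming rule picked, 16 lost the call there, at adjusted p of 0.0501 to 0.181: Adam7, Cacna1i, Ceacam10, Cxcl17, Cyp2b10, Dlg3, Gm27817, Hoxa11os, Igfbp2, Kdelr3, Krt7, Scgb2b7, Slc39a1, Steap2, Tac1 and Ttr.

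The split between higher and lower genes depends on the scaling of the libraries. Counts scaled by the total of each library gave 448 called genes (3.11%), 348 higher and 100 lower (77.7% higher, against 38.5% with TMM scaling), and moved the median log2 difference of all genes tested from 0.01 to 0.09. The 10 most abundant genes took 24.02 ± 2.86% (SD, n = 5) of the counts in WT and 19.6 ± 1.01% in ARNoC, with ranges of 21.4 to 28.1% and 18.4 to 20.8% that do not overlap (exact permutation test, two-sided, p = 0.00794, the smallest that 5 against 5 can give). Log2 differences below are ARNoC minus WT with TMM scaling and their standard errors, and levels are normalized counts, which are not adjusted for gene length and are compared only within a gene.

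**Figure D1:**
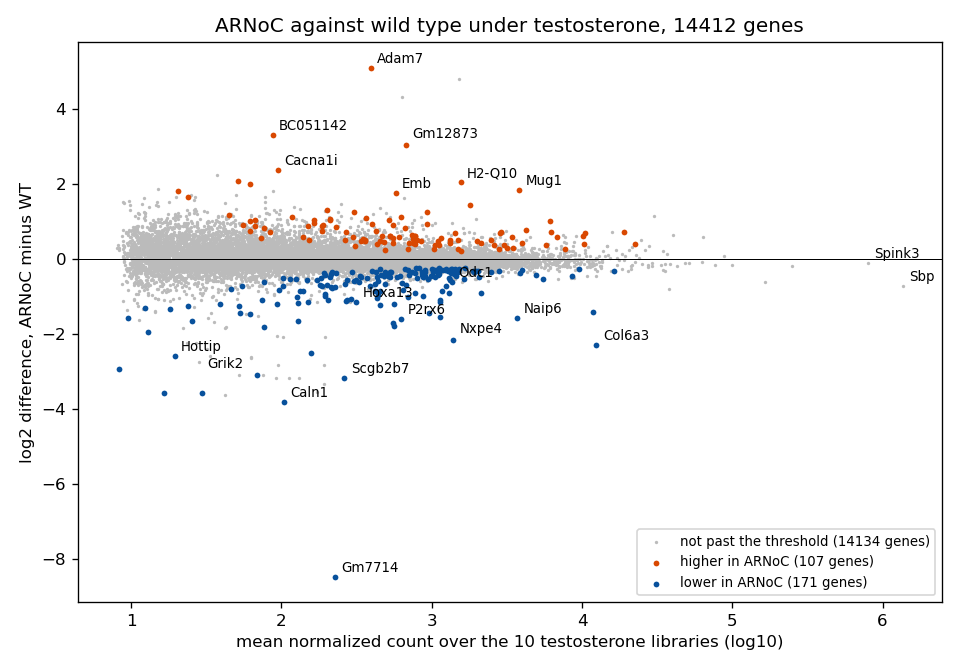
Log2 difference between ARNoC and WT under testosterone (y axis) against the mean normalized count over the 10 testosterone libraries (x axis, log10) for the 14412 genes tested. Orange points are the 107 genes higher in ARNoC, blue points the 171 lower, grey points the rest; Gm7714 lies lowest at -8.47 and Adam7 highest at 5.10, and Spink3 lies close to 0.

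Several androgen-responsive genes were not called. Fkbp5, a co-chaperone of steroid receptors and an established androgen target, stood at 8441, 9952, 7266, 9629.7 and 7587 in the WT libraries and 9265, 10924, 10501, 8283 and 8672 in the ARNoC libraries. The ranges overlapped (log2 difference 0.15 ± 0.10, edgeR adjusted p = 0.508, 95% interval -0.06 to 0.36). For Spink3, a secreted trypsin inhibitor and one of the most abundant transcripts of the gland, the WT range was 615089.9 to 1136624 and the ARNoC range 636793 to 877407. Its log2 difference was -0.11 ± 0.33 (edgeR adjusted p = 0.909, interval -0.79 to 0.58), which leaves room for a difference in either direction. Abo, a glycosyltransferase, ran from 28648 to 34523 in WT and from 21463 to 33028 in ARNoC, against means of 457 and 581 with vehicle. Tmprss2, a transmembrane serine protease, and Zbtb16, a zinc-finger repressor, gave log2 differences of -0.04 ± 0.10 and 0.01 ± 0.08, neither called.

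Ornithine decarboxylase, Odc1 (chr12:17544794-17551505), the rate-limiting enzyme of polyamine synthesis and an androgen-induced gene of the prostate, was lower in ARNoC. Its normalized counts were 1758, 1627, 1520.0, 1623 and 1691 in the WT libraries and 905, 1148, 843, 1347 and 1120.5 in the ARNoC libraries. Every ARNoC library lay below every WT library, with a 1.53-fold lower fitted level (log2 difference -0.62 ± 0.12, edgeR adjusted p = 0.00609). With vehicle the means were 336 in WT and 384 in ARNoC (log2 difference 0.18 ± 0.12, not called), and the change of the genotype difference with testosterone was -0.80 ± 0.17 (adjusted p = 0.213). Of the other 14 polyamine genes tested, none was called, and the next smallest adjusted p was that of Mtap, which recycles methylthioadenosine (log2 difference 0.14 ± 0.06, edgeR adjusted p = 0.277).

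The bases before the Odc1 start are shown because the receptor acts through letters of this kind. It binds paired copies of the half-site AGAACA, whose full inverted repeat is AGAACA, any 3 bases and TGTTCT. The line gives the 250 bases before the RefSeq start (GRCm38.p6), with any AGAACA on either strand in capitals, and here there were 0.
Odc1 (chr12:17544623-17544872, plus strand): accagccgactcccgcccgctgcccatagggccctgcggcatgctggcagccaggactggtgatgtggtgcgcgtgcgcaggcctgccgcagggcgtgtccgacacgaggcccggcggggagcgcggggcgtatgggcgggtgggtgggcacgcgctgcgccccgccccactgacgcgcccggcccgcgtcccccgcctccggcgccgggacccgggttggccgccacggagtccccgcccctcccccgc
AGAACA on either strand was found in 16.08% of 32851 RefSeq promoter windows of this length, and the full repeat in 3 windows. A match describes the letters in a window and shows no binding, and the lack of one says nothing about the receptor.

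Car2, a carbonic anhydrase, had means of 19227 in WT and 13194 in ARNoC with vehicle. Under testosterone it stood at 351, 530.4, 329, 359 and 279.6 in the WT libraries and 147, 255, 143, 178 and 148 in the ARNoC libraries. The ARNoC libraries lay below all WT libraries (2.13-fold, log2 difference -1.09 ± 0.20, edgeR adjusted p = 0.00589). Clu, a secreted chaperone that rises in the regressing prostate, stood at 3639 to 5238 in WT and 3512 to 6156 in ARNoC, and its log2 difference of 0.29 ± 0.27 was not called.

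Of 49 androgen-responsive genes tested, 1 was called higher and 2 lower (6.12%, beside 1.93% of all genes tested). The median log2 difference was 0.09, beside 0.01 over all genes tested, with 28 positive. With total count scaling 4 were called higher (Ncoa4, Sgk1, Lrig1 and Creb3l4) and 1 lower (Odc1), or 10.2%, beside 3.11% of all genes. There 41 were positive with a median of 0.18, beside 0.09 over all genes. With TMM scaling the lower genes were Odc1 and Steap2, a metalloreductase (log2 difference -0.49 ± 0.11, edgeR adjusted p = 0.0275). The higher gene was Ncoa4, a selective ferritin autophagy receptor also described as an androgen receptor coactivator (0.61 ± 0.15, edgeR adjusted p = 0.0419). Steap2 was lost with total count scaling (0.0805), and both borderline calls were lost when single libraries were left out: Steap2 without 7 of 10 (WT 1, 3 and 4, ARNoC 1, 2, 3 and 5; adjusted p 0.0506 to 0.0744) and Ncoa4 without 8 of 10 (WT 1 to 4, ARNoC 1, 2, 4 and 5; 0.059 to 0.124). Zbtb16, not called under testosterone, was called higher in ARNoC with vehicle (0.42 ± 0.09, adjusted p = 0.0393). Its change of the difference between treatments was -0.41 ± 0.12 (adjusted p = 0.376).

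**Figure D2:**
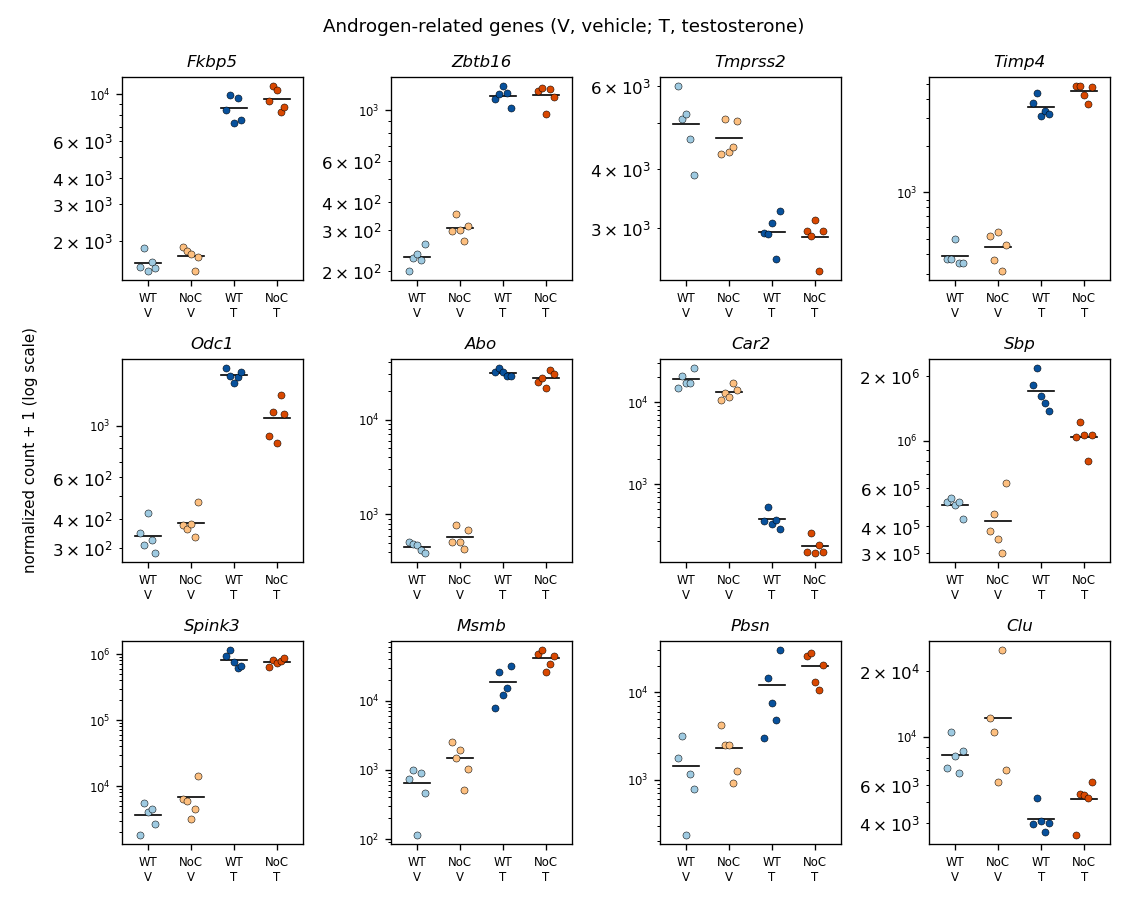
Normalized count plus 1 (y axis, log scale) of 12 androgen-related genes in each of the 20 libraries. Points are libraries, 5 per group, and lines are group means; the ARNoC testosterone points of Odc1, Car2 and Sbp lie below all WT testosterone points, while those of Fkbp5, Abo and Spink3 overlap them.

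Among 22 secretory products tested, none was called higher and 3 were called lower (13.6%, beside 1.19% of all genes called lower), with a median of 0.04. With total count scaling 3 were called higher (Tgm4, Apof and Spink5) and 3 lower (Sbp, Scgb2b4-ps and Scgb2b7), with a median of 0.13, beside 2.41% and 0.694% of all genes. Sbp, the spermine-binding protein that made up 11.8% of all counts in WT on average and 7.76% in ARNoC, stood at 1813921, 2157166, 1604536, 1498687 and 1363049 in the WT libraries and 1034196, 1221719, 1057903, 803372 and 1060853 in the ARNoC libraries. The groups do not overlap, but the log2 difference of -0.71 ± 0.19 was not called (edgeR adjusted p = 0.0663); it was called with 5 other settings, at adjusted p of 0.0355 with total count scaling and 0.00112 with DESeq2. Its neighbour and relative Sbpl gave -0.60 ± 0.18 (adjusted p = 0.101), and reads shared between them could be split by the counting.

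The lower secretory genes were 2 secretoglobins and Wfdc2, a whey-acidic-protein family member. Scgb2b7 stood at 621, 891, 113, 617 and 121 in the WT libraries and 64.8, 74.9, 33.96, 16.2 and 77.2 in the ARNoC libraries. All ARNoC values lay below all WT values (log2 difference -3.17 ± 0.79, edgeR adjusted p = 0.0399), yet the call was lost without any of 8 of the 10 libraries (all but WT 3 and 5; adjusted p 0.0726 to 0.0917). Scgb2b4-ps, an annotated pseudogene of the same cluster on chromosome 7, gave -3.57 ± 0.70 (adjusted p = 0.0239) and was lost without 6 (WT 2 and 4, ARNoC 1, 3, 4 and 5; 0.0514 to 0.0616). Genes of this family resemble each other, so the split of reads among them is uncertain. Wfdc2 stood at 637 ± 161 in WT and 271 ± 87.1 in ARNoC (log2 difference -1.23 ± 0.32, adjusted p = 0.0479). It was not called with DESeq2's size factors (0.0506) or total count scaling (0.0514), and was chosen after its values were seen, to complete the 3.

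Products known from other lobes of the mouse prostate varied widely between libraries. Msmb, beta-microseminoprotein, stood at 7853, 26255, 12146, 15327 and 31819.5 in the WT libraries and 47895, 53473, 26345, 34036 and 44407 in the ARNoC libraries. Only 1 of the 5 ARNoC libraries fell within the WT range (log2 difference 1.14 ± 0.47, edgeR adjusted p = 0.241; without WT libraries 2 and 5 together 1.81, adjusted p = 0.103). Pbsn, probasin, ran from 3018 to 29794 in WT and from 10623 to 28079 in ARNoC, with a log2 difference of 0.71 ± 0.60 that became 1.38 without WT library 5 (adjusted p = 0.269) and 1.94 without WT libraries 2 and 5 (0.148), and was called in none of these. Tgm4, prostate transglutaminase, stood at 46.2, 23.6, 159.8, 46.99 and 32.5 in the WT libraries and 238, 4669.7, 1027, 24 and 47.5 in the ARNoC libraries, and its log2 difference of 4.33 ± 1.12 was not called (adjusted p = 0.0519). It was called with DESeq2 (0.00213), with total count scaling (0.0388) and without ARNoC library 4 (0.0199) or 5 (0.0352), and it was 2.46 without ARNoC library 2 and 2.21 with limma-voom, neither called. Of 12 such markers tested, 1 was called (8.33%, beside 1.93% of all genes tested). This was Fgl1, a fibrinogen-like secreted protein, at 15.4, 24.8, 26.4, 7.05 and 23.3 in the WT libraries and 52.1, 166, 64.4, 72.6 and 59.3 in the ARNoC libraries (log2 difference 2.08 ± 0.39, edgeR adjusted p = 0.00591). The summed level of the 14 markers was 31120 to 116681 in WT and 80681 to 155732 in ARNoC, none was at 0 in all libraries, and their part in the other differences was not tested.

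The gene with the smallest adjusted p was P2rx6 (chr16:17561885-17577800), a subunit of ATP-gated P2X channels. It stood at 918, 954, 1119.8, 869 and 870.3 in the WT libraries and 325, 348, 174, 370.1 and 325 in the ARNoC libraries. The lowest WT library was above every ARNoC library, and the fitted level was 3.06-fold lower (log2 difference -1.61 ± 0.15, edgeR adjusted p = 1.13e-05). With vehicle the means were 665 and 467 (log2 difference -0.51 ± 0.14, adjusted p = 0.185). The change of this difference with testosterone was not called with all libraries, but was without ARNoC testosterone library 3 (edgeR adjusted p = 0.0191).

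Gm7714, a predicted protein-coding gene at chr5:88268919-88282835, had the largest difference. Its normalized counts were 363, 1300.0, 329, 133 and 141 in the WT libraries and 0, 3.51, 1.17, 1.20 and 0 in the ARNoC libraries. The 5 ARNoC libraries together held 6 counts and the 5 WT libraries 1834, so the fitted log2 difference of -8.47 ± 0.84 (edgeR adjusted p = 2.49e-05) rests on very few ARNoC counts. It was -7.54 without WT library 2, -9.13 without ARNoC library 2, -7.86 with limma-voom and -7.73 without WT libraries 2 and 5, all called. With vehicle it was present in both genotypes, at 368, 786, 717, 692 and 795 in the WT libraries and 128, 151, 198, 126 and 229.7 in the ARNoC libraries, without overlap, as in 254 genes (1.76%) with vehicle (log2 difference -2.02 ± 0.46, adjusted p = 0.0723). Its change of the genotype difference with testosterone, -6.45 ± 1.06, had an adjusted p of 0.0705. That change was called without WT testosterone library 2 (0.00243), 4 (0.0182) or 5 (0.0207), and it had the smallest adjusted p of all genes with DESeq2 (1.21e-07).

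Grik2, a kainate-type glutamate receptor subunit at chr10:49094833-49788766, stood at 120.1, 104, 129, 166 and 102 in the WT libraries and 12.8, 18.7, 18.7, 15.6 and 5.93 in the ARNoC libraries. ARNoC libraries were 8.54-fold lower (log2 difference -3.09 ± 0.33, edgeR adjusted p = 4.08e-05), and with vehicle the difference was -2.75 ± 0.36 (adjusted p = 0.00051). Wscd1, a WSC-domain protein, ranged from 99 to 156 in WT and from 18.99 to 53.1 in ARNoC, a log2 difference of -1.83 ± 0.22 (adjusted p = 0.000101), and -1.90 ± 0.19 with vehicle (2.73e-05). The ARNoC libraries of Grik2 and Wscd1 did not overlap the WT libraries.

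Col6a3, the alpha-3 chain of collagen VI (chr1:90765923-90843971), was the only fibroblast gene called. It stood at 20574, 14571, 23328, 27907 and 17249 in the WT libraries and 4495, 4625, 4332, 5008 and 2825 in the ARNoC libraries. The ARNoC level was 4.87-fold lower (log2 difference -2.28 ± 0.25, edgeR adjusted p = 4.08e-05) with no overlap, and it was lower with vehicle too (-1.32 ± 0.24, adjusted p = 0.0128). Its partner chains stood at log2 differences of 0.52 ± 0.43 (Col6a1) and 0.65 ± 0.49 (Col6a2), neither called. Of 29 fibroblast and matrix genes tested, the other 28 all had a positive log2 difference (median of the list 0.65, beside 0.01 over all genes), also with the 2 other scalings. Summed fibroblast markers, Col6a3 included, were 25583 to 60479 normalized counts in WT and 25528 to 66050 in ARNoC, with 29 of 29 above 0. Markers of smooth muscle, endothelial cells and macrophages also had mostly positive differences, with none called. Of smooth muscle genes 20 of 20 were positive (median 0.49, summed 22275 to 69600 in WT and 34143 to 77109 in ARNoC). Of endothelial genes 17 of 20 were (median 0.26, 697 to 2105 and 1361 to 2350), and of macrophage genes 19 of 22 (median 0.62). Lymphocyte markers leaned the other way, with 2 of 7 positive, a median of -0.21 and none called. All 20 smooth muscle and all 20 endothelial markers were above 0, and the part of these cells in the fibroblast values was not tested. Among 34 collagen genes, Col6a3 was likewise the only one called.

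Nxpe4 and Nxpe2 on chromosome 9, neurexophilin and esterase domain genes, fell together. Nxpe4 stood at 2906, 2349, 2120.2, 1834 and 2105 in the WT libraries and 627, 474, 297, 405 and 745 in the ARNoC libraries (log2 difference -2.15 ± 0.24, edgeR adjusted p = 6.23e-05). For Nxpe2 the WT range was 678 to 1147 and the ARNoC range 174 to 349 (-1.71 ± 0.36, adjusted p = 0.014). Neither gene's groups overlapped. With vehicle the differences were -0.71 ± 0.23 and -0.62 ± 0.34, not called. The 2 genes overlap in the annotation (chr9:48162023-48400025 and chr9:48318006-48353454), and since the strand setting of the counting is not given, reads of one cannot be told from reads of the other. The 250 bases before the RefSeq start of each are shown because the genes lie side by side and moved together. Both RefSeq starts lie inside the GENCODE spans just given rather than at their ends, so the annotations place the starts differently. Capitals again mark AGAACA or its reverse complement.
Nxpe4 (chr9:48361791-48362040, plus strand): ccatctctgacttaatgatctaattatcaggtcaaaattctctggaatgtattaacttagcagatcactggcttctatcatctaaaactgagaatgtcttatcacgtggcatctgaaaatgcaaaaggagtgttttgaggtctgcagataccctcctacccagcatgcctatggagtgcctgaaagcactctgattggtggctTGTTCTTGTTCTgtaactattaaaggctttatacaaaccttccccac
Nxpe2 (chr9:48340899-48341148, minus strand): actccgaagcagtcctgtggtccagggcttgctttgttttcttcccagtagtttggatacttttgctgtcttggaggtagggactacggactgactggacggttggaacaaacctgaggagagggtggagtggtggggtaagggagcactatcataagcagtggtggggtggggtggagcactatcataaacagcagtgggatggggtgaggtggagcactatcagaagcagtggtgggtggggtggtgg
Nxpe4 had 2 matches, both on the minus strand, beginning 47 and 41 bases before the start, and Nxpe2 had 0.

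Slc39a8, a zinc and manganese importer, stood at 1631, 2142, 1872, 1384 and 1438 in the WT libraries and 433, 515, 692, 617 and 669 in the ARNoC libraries. The ARNoC libraries were 2.90-fold lower without overlap (log2 difference -1.53 ± 0.18, edgeR adjusted p = 7.58e-05), and with vehicle the difference was -0.94 ± 0.17 (adjusted p = 0.0146). Zinc is concentrated by the prostate, and of 24 genes of zinc and citrate handling Slc39a8 was called lower and Slc39a1 higher (0.42 ± 0.09, adjusted p = 0.0235, lost without WT 1 and 3 and ARNoC 2, 4 and 5 at 0.0509 to 0.0722). Called members made up 8.33% of the list, beside 1.93% of all genes tested. The median of the list was -0.01, and 0.08 with total count scaling, where Slc39a6 was called higher too (12.5% of the list, beside 3.11% of all genes). Serpinb11, a serpin, fell, with a WT range of 728 to 1055 and an ARNoC range of 179 to 295 (-1.78 ± 0.22, adjusted p = 0.000143). Naip6, a sensor of bacterial proteins, fell as well, with ranges of 4064 to 6893 and 1225 to 2366 (-1.56 ± 0.24, adjusted p = 0.00132). Its neighbours Naip5 and Naip2 were also called lower, at -1.21 and -0.56. Naip genes resemble each other, and their reads could be split by the counting. Caln1, a calcium-binding protein of neurons, stood at 271, 165, 236, 115 and 185 in the WT libraries and 36.1, 17.6, 9.37, 4.20 and 3.56 in the ARNoC libraries (-3.81 ± 0.68, adjusted p = 0.00419), or -4.55 without ARNoC library 1. Tac1, the precursor of substance P, gave -1.67 ± 0.33 (adjusted p = 0.00905), and its groups overlapped.

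**Figure D3:**
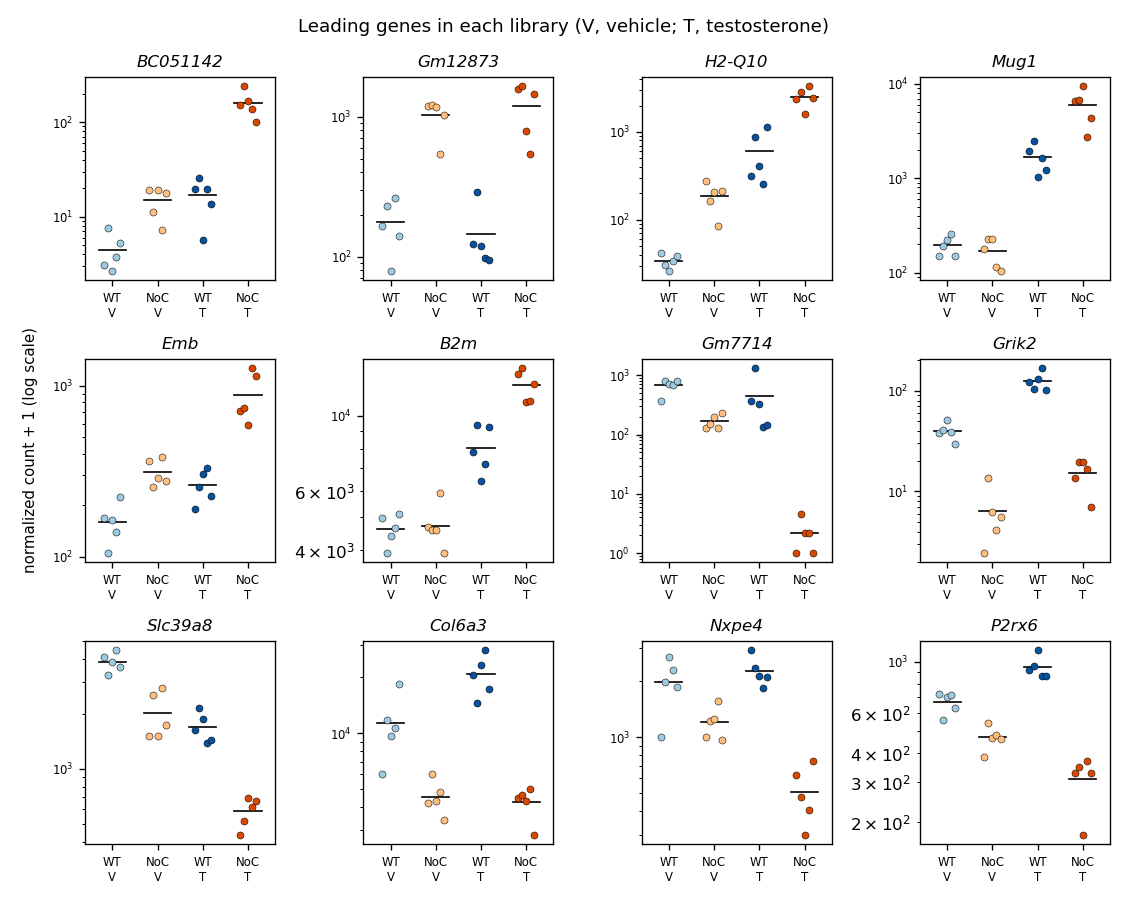
Normalized count plus 1 (y axis, log scale) of 12 genes in each of the 20 libraries. Points are libraries, 5 per group, and lines are group means; the first 6 panels, BC051142 to B2m, are higher and the last 6, Gm7714 to P2rx6, lower in ARNoC under testosterone (NoC T) than in WT (WT T), without overlap.

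Among the higher genes, Adam7, a metalloprotease-like protein known from the epididymis, had the largest difference. It stood at 13.9, 14.1, 13.96, 68.1 and 1.66 in the WT libraries and 333, 534, 2649, 155 and 140.1 in the ARNoC libraries. The groups do not overlap (log2 difference 5.10 ± 0.90, edgeR adjusted p = 0.00644), but the value was 3.69 without ARNoC library 3 and 6.22 without WT library 4, and the call was lost with limma-voom (adjusted p = 0.0913). With vehicle the groups held 0 counts in WT and 2 in ARNoC, so no difference was read there. BC051142, a gene of the MHC region of chromosome 17 (chr17:34398820-34460734), stood at 18.5, 24.8, 4.65, 18.8 and 12.5 in the WT libraries and 152, 238, 167, 138 and 99.7 in the ARNoC libraries. ARNoC libraries were 9.86-fold higher without overlap (3.30 ± 0.35, adjusted p = 4.08e-05). Gm12873, an annotated unprocessed pseudogene at chr4:122778154-122793749, stood at 122, 288, 118, 97.5 and 94.02 in the WT libraries and 1569, 1641, 793, 542 and 1445 in the ARNoC libraries. It was 8.29-fold higher (3.05 ± 0.38, adjusted p = 0.000143), and with vehicle 2.55 ± 0.37 (0.0016).

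H2-Q10, a secreted non-classical MHC class I molecule at chr17:35470089-35474563, stood at 311, 883, 411, 257 and 1138 in the WT libraries and 2350.1, 2888, 1584, 3302 and 2433 in the ARNoC libraries. The ARNoC libraries lay above all WT libraries (4.14-fold, log2 difference 2.05 ± 0.34, edgeR adjusted p = 0.00225), and with vehicle the difference was 2.52 ± 0.43 (adjusted p = 0.00709). Without WT libraries 2 and 5 together the difference was 2.95. Beta-2 microglobulin, B2m, the invariant light chain of class I molecules, stood at 7824, 9396, 6390.1, 7209 and 9301 in the WT libraries and 13333, 13843, 10984, 11097 and 12438 in the ARNoC libraries. It was 1.53-fold higher without overlap (0.62 ± 0.12, adjusted p = 0.0095), while with vehicle the difference was 0.03 ± 0.12 and not called. The classical class I gene H2-K1 was higher by 0.40 ± 0.10 (adjusted p = 0.0372), and H2-D1 gave 0.29 ± 0.08 (0.0619).

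Of 29 MHC and antigen presentation genes tested, 3 were called higher (10.3%, beside 0.742% of all genes tested) and none lower. In this list 25 had a positive log2 difference and the median was 0.23, beside 0.01 over all genes. With DESeq2's size factors 4 were called higher, and with total count scaling 5 (17.2%, beside 2.41% of all genes). Class I genes share long stretches of sequence, so single members are uncertain. Of 32 interferon-stimulated genes, 27 had a positive difference (median 0.22) and none was called by edgeR, with 2 at an unadjusted p below 0.05, a level that 2220 genes (15.4%) reached overall. Macrophage and myeloid markers summed to 2371 to 4869 normalized counts in WT and 3672 to 7178 in ARNoC, and lymphocyte markers to 710 to 11143 and 1603 to 7317. Of the listed names 24 of 25 and 18 of 19 were among the deposited genes, all with counts. None of the 22 macrophage and 7 lymphocyte markers tested was called (Gzmb, a T cell protease, was without ARNoC library 1, at 0.0495), and their part in the MHC difference was not tested.

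Mug1, murinoglobulin, a secreted broad-spectrum protease inhibitor at chr6:121838541-121889057, stood at 1952, 2489, 1027, 1642 and 1212 in the WT libraries and 6603, 6814, 9412, 2742 and 4397 in the ARNoC libraries. It was 3.59-fold higher (1.84 ± 0.30, edgeR adjusted p = 0.00161), and with vehicle the means of 193 and 169 were far lower in both genotypes. Emb, embigin, a chaperone of monocarboxylate transporters (chr13:117208536-117274415), stood at 191, 257, 302, 330.1 and 226 in the WT libraries and 709, 739.8, 593, 1262 and 1138 in the ARNoC libraries. ARNoC libraries were 3.40-fold higher without overlap (1.77 ± 0.22, adjusted p = 0.000143). Casc4, a Golgi membrane protein, rose, with ranges of 91.9 to 149 in WT and 205 to 391 in ARNoC (1.30 ± 0.18, adjusted p = 0.000418). Cacna1i, a T-type calcium channel, was 2.37 ± 0.50 higher (adjusted p = 0.0164), a call lost without WT library 1 (0.0558). Ttr, the thyroid hormone carrier transthyretin, was higher by 2.01 ± 0.37 (adjusted p = 0.0055).

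Other higher genes had adjusted p close to the threshold. Krt7, a keratin of proximal luminal cells, was 1.43 ± 0.35 higher, Igfbp2, an insulin-like growth factor binding protein, 1.26 ± 0.32, Cpe, carboxypeptidase E, 1.26 ± 0.28, Ceacam10 1.16 ± 0.26 and Kcnq1, a potassium channel subunit, 1.11 ± 0.24. Their calls (edgeR adjusted p 0.0196 to 0.0462) passed 0.05 without some single libraries, while their log2 differences stayed at 1.26 to 1.62, 1.04 to 1.45, 1.08 to 1.62, 0.99 to 1.44 and 1.01 to 1.28 over the 10 fits that each left 1 library out. Krt7 was lost without WT 1 to 3 and ARNoC 1 to 3 (0.0587 to 0.0967) and Igfbp2 without WT 1, 2, 3 and 5 and ARNoC 1, 3 and 5 (0.0764 to 0.121). Cpe was lost without WT 1, 3 and 4 and ARNoC 1 and 5 (0.0502 to 0.0722) but was larger and called without WT 2 and 5 together (1.87, 0.00151). Ceacam10 was lost without WT 1 and 3 and ARNoC 1 and 5 (0.0519 to 0.0586), and Kcnq1 without WT 1 and 3 and ARNoC 5 (0.0504 to 0.0603). Of 14 proximal luminal markers tested, 21.4% were called, beside 1.93% of all genes tested. Krt7 and Aldh1a1, a retinaldehyde dehydrogenase (0.71 ± 0.12, adjusted p = 0.00342), were called higher and Wfdc2 lower, the last with TMM scaling only. Summed, the proximal luminal markers were 44135 to 60456 in WT and 57827 to 82324 in ARNoC, with 15 of 15 above 0. The sum rests mostly on abundant members. By the mean log2 of normalized counts plus 1 the groups were alike, at 8.76 to 9.76 in WT (median 9.26) and 9.07 to 9.79 in ARNoC (median 9.27).

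The Hoxa13 end of the Hoxa cluster on chromosome 6 was lower in ARNoC over a run of neighbouring transcripts. Hoxa13 (chr6:52257694-52260880), a homeobox factor of the urogenital tract, stood at 433, 389, 473, 388 and 469 in the WT libraries and 205, 172, 196, 193 and 211 in the ARNoC libraries. Each ARNoC library lay below each WT library (2.20-fold, log2 difference -1.14 ± 0.13, edgeR adjusted p = 7.58e-05). Hottip, the long non-coding RNA that starts beside it on the other strand (chr6:52262775-52267603), stood at 32.3, 29.5, 35.7, 35.2 and 37.4 in the WT libraries and 4.25, 2.34, 2.34, 12 and 3.56 in the ARNoC libraries. Its difference was -2.60 ± 0.40 (adjusted p = 0.00127), or -3.39 without ARNoC library 4. 5730457N03Rik (chr6:52308389-52314832), annotated as antisense, stood at 24.6, 10.6, 10.9, 11.7 and 17.5 in the WT libraries and 0, 2.34, 1.17, 3.599 and 1.19 in the ARNoC libraries. This low-level transcript differed by -2.93 ± 0.46 (adjusted p = 0.00143), or -3.57 without ARNoC library 4, and held 63 WT and 10 ARNoC counts under testosterone. It passed the filter of 10 normalized counts through the WT libraries alone. Its direction and lack of overlap under testosterone follow from that route and are no support for the run. The filter did not use the vehicle libraries.

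On the other side, Gm27817 gave -1.19 ± 0.29 (edgeR adjusted p = 0.0343) and Hoxa11os -0.54 ± 0.12 (0.0244). Both calls were lost without single libraries, Gm27817 without WT 1, 3, 4 and 5 and ARNoC 2 to 5 (0.0552 to 0.089) and Hoxa11os without WT 1, 3, 4 and 5 and ARNoC 3 to 5 (0.0508 to 0.0616). Hoxa11, whose start lies between those of Gm27817 and Hoxa11os and whose span overlaps that of Hoxa11os, was not called (0.05 ± 0.18). The lower transcripts are therefore not an unbroken run by start site. Farther along, Hoxa10 (-0.30 ± 0.13), Hoxa9 (-0.36 ± 0.15) and Hoxa7 (0.16 ± 0.23) were not called either. With vehicle the differences were -1.05 ± 0.13 for Hoxa13 (adjusted p = 0.00029), -2.55 ± 0.32 for Hottip (0.000394) and -3.99 ± 0.39 for 5730457N03Rik (2.73e-05). Hoxa13 had 1555 ± 164 normalized counts in WT and 752 ± 197 in ARNoC with vehicle, both means above those of the testosterone groups. Over all clusters, 1 of 21 Hox genes tested was called (4.76%, beside 1.93% of all genes tested). The 8 Hoxb and 6 Hoxd genes were not. Hoxb13, the homeobox factor of the prostate, stood at 9781 ± 1507 and 12289 ± 2121 (0.33 ± 0.12). Antisense partners overlap here and the strand setting is not given, so reads of overlapping transcripts cannot be told apart. The promoters of Hoxa13 and Hottip, which point away from each other, held 0 matches to AGAACA.
Hoxa13 (chr6:52260881-52261130, minus strand): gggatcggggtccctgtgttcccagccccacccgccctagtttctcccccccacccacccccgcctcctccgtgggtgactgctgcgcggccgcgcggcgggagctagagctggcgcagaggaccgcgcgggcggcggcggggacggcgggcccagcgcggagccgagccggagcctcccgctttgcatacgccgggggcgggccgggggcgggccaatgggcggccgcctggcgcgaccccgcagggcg
Hottip (chr6:52262525-52262774, plus strand): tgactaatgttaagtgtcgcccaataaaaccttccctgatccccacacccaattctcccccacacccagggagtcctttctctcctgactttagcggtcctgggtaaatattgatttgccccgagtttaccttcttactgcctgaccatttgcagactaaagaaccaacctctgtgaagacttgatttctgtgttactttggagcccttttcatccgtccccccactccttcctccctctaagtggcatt

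**Figure D4:**
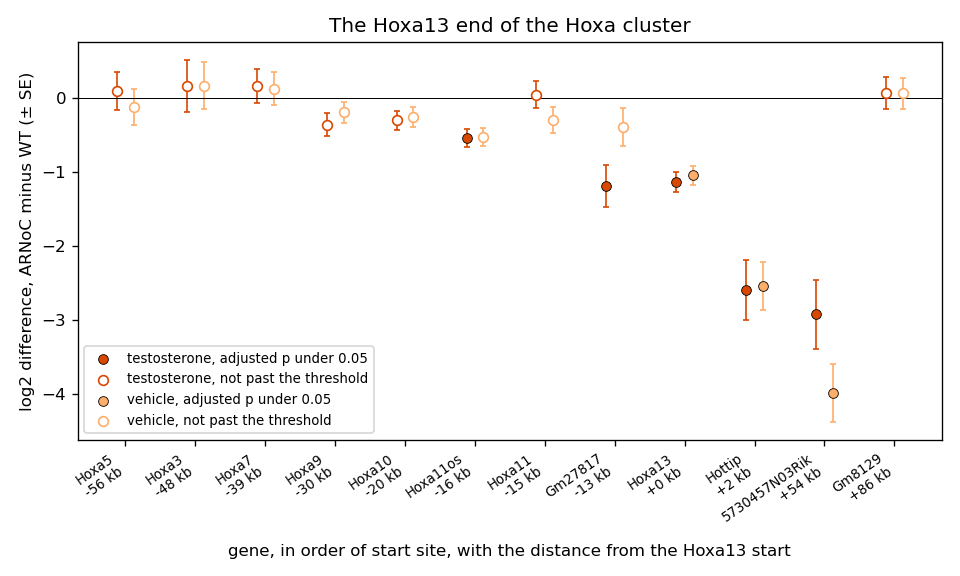
Log2 difference between ARNoC and WT (y axis, ± SE) for the tested genes around Hoxa13, in order of start site, under testosterone (dark orange) and with vehicle (light orange), each from 5 against 5 libraries. Filled points passed an adjusted p of 0.05; from Hoxa13 to 5730457N03Rik the filled points lie at -1.05 to -3.99, while Hoxa5, Hoxa7 and Gm8129 lie near 0.

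Called genes also lay next to each other elsewhere. In 14 pairs of genes that are neighbours among those tested, both were called, and in 14 of the 14 they moved the same way. Besides the Hoxa, Naip, Nxpe and Scgb2b runs these included Tyw1 (-1.44) beside Caln1, Depdc5 (-0.91) beside Prr14l (-0.51), and Tcf19 (0.75) beside H2-Q10. These pairs were looked for after the calls were known. They are not 14 separate cases, since the Hoxa and Naip runs each give more than 1 pair. Some pairs also overlap or resemble each other, so reads could be shared. How often neighbours move the same way over all genes tested is not given here. On the X chromosome 12 of 519 genes were called (2.31%), and the highest share was on chromosome 6, with 20 of 695 (2.88%). Both lie near the 1.93% of all genes tested, and the calls on chromosome 6 include the Hoxa transcripts above.

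Other gene groups held few called genes. Of the export and lipid synthesis lists given next, 3.85% and 4.17% were called, beside 1.93% of all genes tested. Of 52 genes of protein folding and export from the endoplasmic reticulum, Copa, a coatomer subunit (-0.26 ± 0.06, edgeR adjusted p = 0.0202), and Kdelr3, a retrieval receptor (-0.48 ± 0.11, 0.0237), were called lower. The list had 11 positive differences and a median of -0.11, which was -0.02 with 24 positive under total count scaling, where neither was called. Copa was also lost without WT 1 and 4 (0.0534 to 0.0548) and Kdelr3 without WT 2, 4 and 5 and ARNoC 1 (0.0537 to 0.0624). Elovl7, a fatty acid elongase, was called lower (-0.47 ± 0.09, adjusted p = 0.007) as 1 of 24 lipid synthesis genes. None of 24 cholesterol synthesis, 27 stress response, 44 ribosomal protein, 22 immediate early and 11 androgen metabolism genes was called by edgeR with TMM scaling over all 20 libraries. Total count scaling called Hsd17b4, a peroxisomal steroid and fatty acid enzyme (0.24, adjusted p = 0.0188). Fosl2, an AP-1 subunit, was called lower with DESeq2 and, by edgeR, without ARNoC library 3 (adjusted p = 0.00726).

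The call of oxidative phosphorylation genes depended on the scaling. Of 42 tested, 40 had a positive log2 difference, with a median of 0.10, and none was called with TMM scaling. With total count scaling 42 were positive (median 0.19) and 7 were called higher, 16.7% of the list beside 2.41% of all genes called higher: Ndufa1, Ndufa4 and Ndufa9 of complex I, Sdhb and Sdhd of complex II, Cox4i1 of complex IV and Atp5c1 of the ATP synthase. Ndufa1 (0.34 ± 0.09, edgeR adjusted p = 0.0636) and Sdhd (0.24 ± 0.06, 0.0606) were also called with DESeq2 (0.0195 and 0.0204), with a filter of 50 normalized counts (0.0293 and 0.0289), without WT library 2 (0.0112 and 0.0363) and without WT libraries 2 and 5 (0.0201 and 0.0232).

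Cell cycle genes were not called by edgeR with TMM scaling either. Of 39 S phase genes, 37 had a positive difference (median 0.32), and of 37 genes of G2 and mitosis 36 did (median 0.61), with 0 called by edgeR and 5 and 1 at an unadjusted p below 0.05. With DESeq2, limma-voom and libraries left out, only the 2 S phase genes picked by the naming rule were followed, not the whole list. Both were called higher in some settings. E2f1, a transcription factor of S phase entry (0.77 ± 0.25), was called with DESeq2 (0.0359) and limma-voom (0.0290). Mcm10, a replication initiation factor (1.08 ± 0.30), was called with DESeq2 (0.0408), total count scaling (0.0454) and without ARNoC library 5 (0.0478). Mki67, a proliferation marker, stood at 81.6, 100.2, 551, 347 and 108 in the WT libraries and 103, 209.5, 512, 843 and 65.3 in the ARNoC libraries. The libraries of each group spread over more than the difference between groups (0.57 ± 0.63), and the sign turned without ARNoC library 4 (-0.08).

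Single genes of 3 other families were called. They made up 8.33% of the cytochrome P450 genes tested, 11.8% of the chemokines and 25% of 4 urothelium markers, beside 1.93% of all genes tested. Of 24 cytochrome P450 genes, Cyp4f16 was higher (0.87 ± 0.16, edgeR adjusted p = 0.00558) and Cyp2b10 lower, at 1026, 1304, 692, 915 and 712 in the WT libraries and 546, 513, 326, 338 and 597 in the ARNoC libraries (-1.01 ± 0.23, adjusted p = 0.0283). With vehicle Cyp2b10 leaned the other way, with means of 211 in WT and 417 in ARNoC (0.97 ± 0.24, 0.107), and the change of the difference with testosterone of -1.98 ± 0.34 had the smallest adjusted p of all genes (0.0705). That change was called by edgeR with total count scaling (adjusted p = 0.0362), with a filter of 50 normalized counts (0.0455) and without ARNoC vehicle library 3 (0.0246). The call of Cyp2b10 under testosterone was lost without WT 1, 2 and 4 and ARNoC 2 to 4 (0.0515 to 0.0746). Of 17 chemokines, Cxcl17 was higher (0.62 ± 0.15) and Cx3cl1 lower (-0.34 ± 0.08), each lost without 8 of 10 libraries (Cxcl17 all but WT 4 and ARNoC 3, 0.052 to 0.0948; Cx3cl1 all but WT 5 and ARNoC 2, 0.0709 to 0.122), and Cx3cl1 also with total count scaling. Upk1b, a urothelial membrane protein, stood at 939, 1023, 1087, 1149 and 1600.0 in the WT libraries and 662, 645, 417, 599 and 634 in the ARNoC libraries and was lower without overlap (-0.97 ± 0.16, adjusted p = 0.00225). Upk1a (-0.52, edgeR adjusted p = 0.103) was called lower with DESeq2 only. Summed urothelium markers (7 of 7 above 0) were 8453 to 11105 in WT and 4091 to 7183 in ARNoC, a sum made up mostly of Upk1a and Upk1b. By the mean log2 of normalized counts plus 1 the list was not lower, at 4.34 to 7.58 in WT (median 4.82) and 4.42 to 5.32 in ARNoC (median 4.85). The part of urothelial cells in the Upk1b difference was not tested.

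To see which differences were present without androgen, the same genotypes were compared with vehicle, in libraries that are separate from the testosterone ones. There 47 genes were called (0.326% of those tested), 26 higher and 21 lower in ARNoC. Of these, 24 were also called under testosterone, all with the same sign, which is 51.1% of the vehicle calls and 8.63% of the testosterone calls. The 13 genes lower in both included Grik2, 5730457N03Rik, Hottip, Col6a3, Wscd1, Slc39a8, Tyw1, Naip5, Eya2, Hoxa13, Angpt2 and Il13ra1. The 11 higher in both were Gm12873, H2-Q10, B4galnt2, Kcnn4, Ror2, Plekhs1, Slc16a12, Dnase1l2, Gpr126, Tesk2 and 9130409J20Rik. Of the 276 called genes that had more than 3 counts in a vehicle group, 236 had the same sign with vehicle (85.5%; 53.1% over all genes tested), with a Pearson's r of 0.71 across these genes, which are not independent replicates, beside 0.15 over all genes tested. An unadjusted p below 0.05 with vehicle was reached by 112 of the 278 (40.3%) and by 1102 genes (7.65%) overall.

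Most genes called under testosterone, 254 of 278, were not called with vehicle. The median absolute log2 difference of the 278 genes was 0.59 under testosterone, the condition in which they were selected, and 0.19 with vehicle, and 267 were larger under testosterone. Testing the change itself, no gene had a genotype difference that was called different between testosterone and vehicle by edgeR's test (0 of 14412, with 1264 genes, or 8.77%, at an unadjusted p below 0.05; 26 called by DESeq2 and 0 by limma-voom). The smallest adjusted p was 0.0705. Genes called with vehicle only numbered 23, and 22 of them had the same sign under testosterone. Besides Zbtb16 they included, chosen after their values were seen, Smad4, the shared mediator of TGF-beta signalling, at -0.66 ± 0.11 with vehicle and -0.05 ± 0.11 under testosterone, and Fabp5, a fatty acid binding protein, at -1.65 ± 0.29 and -1.07 ± 0.34.

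**Figure D5:**
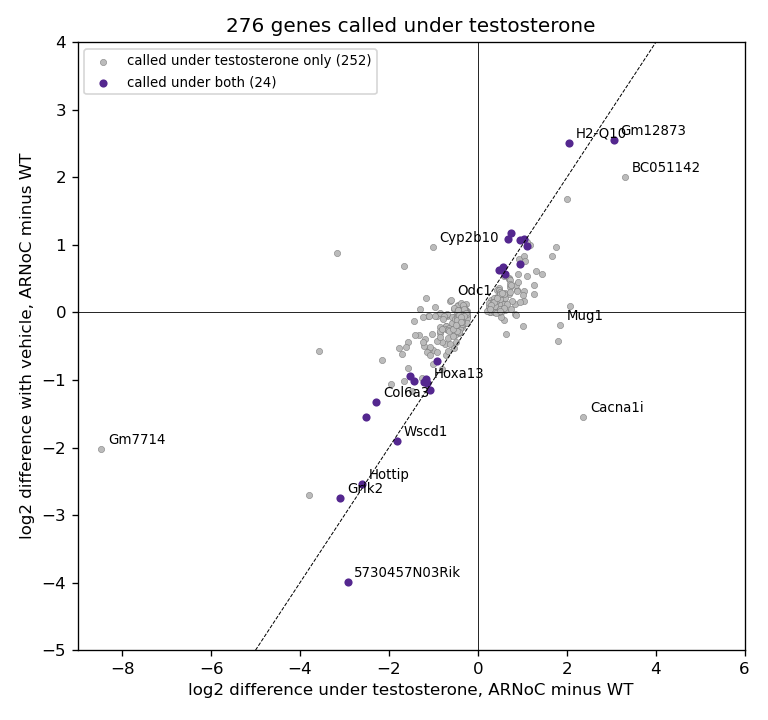
Log2 difference between ARNoC and WT with vehicle (y axis) against that under testosterone (x axis) for 276 genes called under testosterone, leaving out 2 genes with at most 3 counts in each vehicle group. Purple points are the 24 genes called under both, grey points the others, and the dashed line marks equal values; the purple points lie in the 2 quadrants of equal sign, while Cyp2b10, Mug1 and Cacna1i lie in quadrants of opposite sign.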

How the data were processed

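Ventral prostates were profiled by bulk RNA sequencing in 20 libraries, 5 in each of 4 groups of genotype and treatment. Per the submitters' processing notes, the authors used FastQC 0.11.7, HISAT2, SAMtools 1.5, HTSeq and DESeq2 with the mm10 build; gene annotation and strand setting: not given in the sources used here. Per the labels' protocols, tissue was snap-frozen, RNA was purified on Nucleospin Triprep columns and libraries were made with Illumina TruSeq. The authors deposited raw read counts per gene (43472 genes) and a normalized signal table (23221 genes), in which each value is the deposited count divided by a size factor per library: all of the values came out whole, within 1e-06, when multiplied back. Columns were matched to samples by their labels. Replicate numbers follow accession order.

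From the counts, edgeR 4.0.16 (R 4.3.3) fitted 1 mean per group over all 20 libraries, with TMM scaling and its quasi-likelihood F-test. The contrasts were ARNoC minus WT under testosterone, the same with vehicle, and their difference, with Benjamini-Hochberg adjustment over 14412 genes and a threshold of 0.05. Standard errors are the log2 difference divided by the square root of F. Adjusted p-values in the text come from this fit unless another tool is named. The script was tested on simulated data. Alternatives were DESeq2 1.42.0, limma-voom (limma 3.58.1), other scalings and filters, and leaving out libraries. Total counts per library set the precision, and 5 libraries per group limit it.

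The members and the 36 gene lists were chosen with earlier results of these data known. The naming rule took 15 chosen genes, the 15 largest called differences in each direction provided that the group with more transcript averaged 50 or more normalized counts, the 2 members of each list with the smallest adjusted p, called genes of 1 further region, Hox genes and called genes inside the Hox clusters, and genes called in the interaction. Named after their values were seen were Wfdc2, Sbpl, H2-K1, H2-D1, Tcf19, Tyw1, Naip2, Naip5, Depdc5, Prr14l, Col6a1, Col6a2, Smad4, Fabp5, list members called with total count scaling alone and the genes called under both treatments. Some results under the rule are not reported here. Gene positions are those of GENCODE M21 on GRCm38 (mm10), found for 274 of the 278 called genes, and promoter sequences are RefSeq's for GRCm38.p6.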

Additional observations from a re-analysis of the deposited data

Results flagged for a closer look

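In each group of 5 testosterone libraries, the highest and lowest library of 61 genes was set against its 4 companions, using Dixon's gap criterion, and 12 of 122 groups (9.84%) held a library that stood apart. For normally distributed values the criterion flags about 1 in 20. Here the counts were not log-transformed and the genes share libraries, so the share of flagged groups does not measure an excess. WT library 2 was the high one for Clu (5238, the others 3639 to 4070), Gm12873 (287.6, the others 94.0 to 122), Gm7714 (1300.0, the others 133 to 363) and Aldh1a1 (6312, the others 4102 to 4670), all in normalized counts. ARNoC library 3 was the high one for Adam7 (2649, the others 140 to 534). It was the low one for P2rx6 (174.5, the others 325 to 370) and Upk1b (416.9, the others 599 to 662).

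ARNoC library 2 was the high one for Fgl1 (166.2, the others 52.1 to 72.6) and for Dlg3 (1571, the others 1326 to 1371). The remaining cases were Adam7 in WT library 4 (68.13, the others 1.66 to 14.1), Tac1 in ARNoC library 1 (104.2, the others 46.8 to 56.2) and Hottip in ARNoC library 4 (12, the others 2.34 to 4.25). What sets these libraries apart was not tested.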

How the results depend on the processing

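No paired analysis was possible because the labels give the libraries no replicate numbers that pair them across groups. Counts are genes called under testosterone (higher and lower in ARNoC) unless another comparison is named, beside 278 (107 and 171). Total count scaling called 448 (348 and 100) and 2 genes in the interaction, both negative, as did a filter of 50 normalized counts (2, both negative). DESeq2 called 493 (199 and 294), 136 with vehicle (73 and 63) and 26 in the interaction (10 positive, 16 negative), beside 47 (26 and 21) and 0 with edgeR. With limma-voom 33 genes were lower with vehicle. Fitting only the 10 testosterone libraries left 98 lower genes, and only the 10 vehicle libraries 21 calls (10 and 11). A test against a fold of 1.5 called 25 (7 and 18). Leaving out WT libraries 2 and 5 left 107 lower genes. Leaving out single libraries gave 157 to 266 calls (57 to 123 higher, 95 to 171 lower), with vehicle 30 to 71 (15 to 36 higher, 13 to 35 lower), and in the interaction 0 to 1 (0 to 1 positive, 0 to 1 negative). The lowest counts under testosterone came without WT library 3 (157), WT library 1 (158) and ARNoC library 5 (178), and with vehicle without ARNoC library 1 (30), ARNoC library 5 (31) and, as the highest, ARNoC library 4 (71). The cause was not tested. Of 51 called genes picked by the naming rule, 20 passed the threshold under every alternative run, and no called gene among them turned its sign. The runs include the test against a fold of 1.5, which asks a stricter question than the main test. Odc1, Car2, B2m, Aldh1a1, Upk1b, Fgl1, Nxpe2, Elovl7 and Cyp4f16 lost the call in that run only. Genes of few counts, such as Gm7714, Adam7 and 5730457N03Rik, are limited by depth.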
